A study of Mus musculus with 24 samples.

Results

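The resting lungs of the related mouse strains C3H/HeOuJ (OuJ) and C3H/HeJ (HeJ) were compared at the level of the whole autosomal transcriptome. The comparison uses the 6 arrays of mice that breathed air, 3 OuJ and 3 HeJ, of the 24 arrays in the study, and reports the 7769 autosomal genes among the 8008 genes that were tested. RNA came from the left lobe of individual male mice, with 1 Affymetrix array per mouse. OuJ carries a sufficient Tlr4 and HeJ a dominant negative Tlr4, and neither air group was exposed to ozone. The other 18 arrays are from mice of the same strains exposed to ozone for 6, 24 or 48 h, 3 per strain and time, and they serve here to estimate the spread and to show which resting differences recurred. No age is stated for the mice.

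Tlr4 is the cell surface receptor that, with its partners Cd14 and Ly96, recognizes bacterial lipopolysaccharide and signals through adaptors such as Myd88 to NF-kB. In the lung it is present on macrophages, epithelial cells and endothelial cells. The HeJ allele changes a residue of the receptor's intracellular domain and blocks signalling without removing the transcript. The strains were separated by breeding, so they can also differ at loci other than Tlr4, and a difference between them cannot be assigned to Tlr4 in this design, which holds no other pair of strains.

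Signals are linear intensities, and differences are OuJ minus HeJ in log2(signal + 16) ± SE with 3 arrays per strain; a positive value means higher in OuJ. This scale understates the change of genes with low signals. A gene passed when its adjusted p in limma's moderated test was under 0.05. The lung label was borne out by its defining transcripts. In the 6 air arrays Sftpc, the surfactant protein C of alveolar type 2 cells, lay between 27216.3 and 39701.8, Scgb1a1 of club cells between 24982.7 and 37184.5, Ager of alveolar type 1 cells between 12834.5 and 17293.7, and Cldn5 of endothelial cells between 5422 and 9671.3. Over the 8008 genes tested, in log2(signal + 16), air arrays of the same strain correlated at a Pearson r of 0.970 to 0.980. Air arrays of different strains correlated at 0.958 to 0.969. The labels call the mice of a group biological replicates.

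A sign of RNA quality moved with strain in these 6 arrays, as it did at 6 and 48 h of ozone. The 5' to 3' ratio of control transcripts, which falls when RNA is partly degraded or incompletely copied, was 0.814, 0.933 and 0.781 for Gapdh in the OuJ mice and 0.621, 0.511 and 0.543 in the HeJ mice. For actin it was 0.890, 0.868 and 0.848 in OuJ and 0.690, 0.571 and 0.688 in HeJ. The groups did not overlap for either control, and the mean difference was 0.284 for Gapdh and 0.219 for actin (two-sided exact permutation p = 0.1 for both, the smallest that 3 against 3 allows, and 0.1 after adjustment over both). HeJ replicate 2, whose sample code carries a suffix, had the lowest ratio for both. All results below come from arrays in which strain and this ratio moved together; what remained with the ratio as a covariate is given after the gene descriptions.

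In air, 57 of the 7769 autosomal genes (0.734%) passed, 28 higher in OuJ (0.36%) and 29 higher in HeJ (0.373%). The median difference over all autosomal genes was -0.03, with an interquartile range of -0.16 to 0.12, and 44.6% were higher in OuJ by point estimate. Differences that passed ran from 0.40 in size on the log2 scale, or 1.32-fold, to 2.46, with a median of 0.69 or 1.62-fold. The largest, Angpt1, has HeJ signals near or under the pseudocount and is given no fold. Of the 57, 15 were above 1 in size and 8 under 0.5. The filter on low signals kept 5 of the 57 (Nebl, Slc25a24, Wfdc12, Chn1 and Marco) only through the strain in which they are high, so their passing was favoured by the filter; 350 of all autosomal genes were kept that way. The 3 OuJ arrays did not overlap the 3 HeJ arrays for any of the 57, but that also held for 1650 of all autosomal genes tested (21.2%). At an unadjusted p under 0.05 there were 1101 genes (14.2%), the share to set beside the counts at that p in the gene lists below. Another 5 genes that passed are not autosomal: Eif2s3y on chromosome Y and Slc6a14, Araf, Tmem47 and Ids on chromosome X. Single arrays had a large part in the count of 57. Left out singly, OuJ air replicates 1, 2 and 3 brought it to 27, 18 and 37, and HeJ air replicate 2 brought it to 19.

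**Figure D1:**
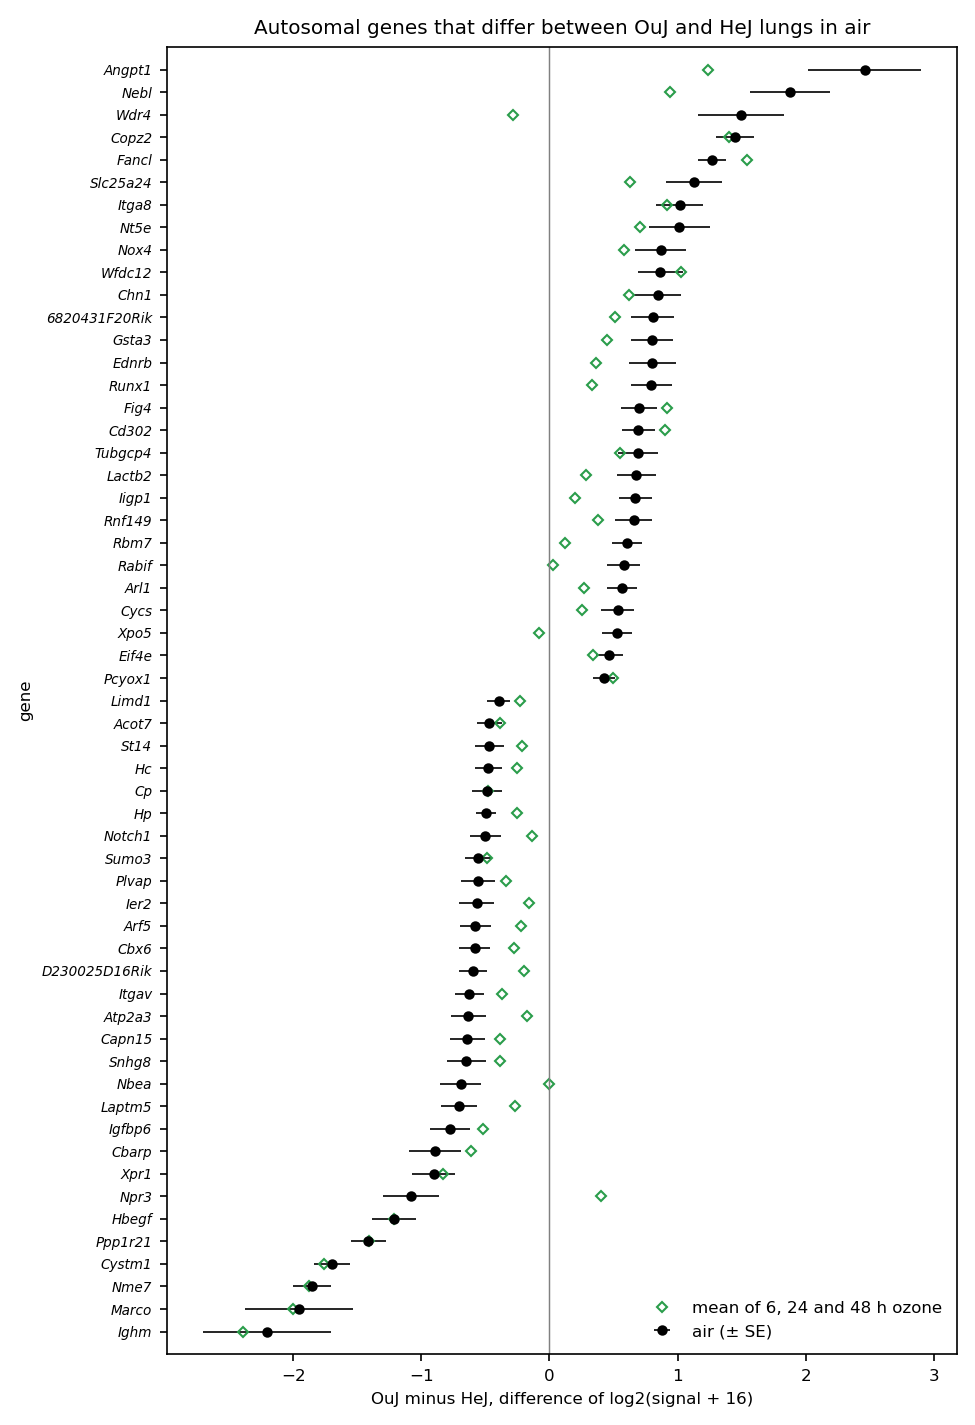
Strain difference in air for the 57 autosomal genes that passed, as OuJ minus HeJ in log2(signal + 16); filled points are air with bars of 1 SE (3 arrays per strain) and open diamonds the mean of the 3 ozone times. Genes higher in OuJ lie to the right of 0 and genes higher in HeJ to the left, and for 47 of the 57 the air value is farther from 0 than the ozone mean.

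The clearest differences were in 5 transcripts of unrelated function that were set apart by strain on every array of the study. Nme7, Cystm1 and Ppp1r21 were higher in HeJ, and Fancl and Copz2 were higher in OuJ. These 5 passed in the reported test and in each of 39 repeats of the analysis with other settings or with an array left out. The 250 bases before the start of 4 of these genes are printed so that the sequence at each locus can be read beside its levels. They are from RefSeq for the build GRCm38.p6 and the C57BL/6J reference mouse, not from the strains studied, and are written 5' to 3' along the gene. Capitals mark matches, on either strand, to GGGCGG (GC box), CCAAT or TATAAA; overlapping GC boxes run together. The windows are Nme7 at chr1:164307422-164307671, Ppp1r21 at chr17:88529874-88530123, Fancl at chr11:26386834-26387083 and Copz2 at chr11:96849626-96849875, all on the plus strand.
Nme7: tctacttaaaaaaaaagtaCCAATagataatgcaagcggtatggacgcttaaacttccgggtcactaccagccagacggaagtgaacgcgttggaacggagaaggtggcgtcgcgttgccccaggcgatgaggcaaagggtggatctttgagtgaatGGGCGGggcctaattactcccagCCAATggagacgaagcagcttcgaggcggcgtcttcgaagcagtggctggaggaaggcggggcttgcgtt
Ppp1r21: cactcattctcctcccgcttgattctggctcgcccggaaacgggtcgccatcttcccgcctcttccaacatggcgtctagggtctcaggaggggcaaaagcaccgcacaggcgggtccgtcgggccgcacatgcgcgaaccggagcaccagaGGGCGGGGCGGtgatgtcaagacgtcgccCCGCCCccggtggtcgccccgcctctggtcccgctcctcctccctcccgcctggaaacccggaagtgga
Fancl: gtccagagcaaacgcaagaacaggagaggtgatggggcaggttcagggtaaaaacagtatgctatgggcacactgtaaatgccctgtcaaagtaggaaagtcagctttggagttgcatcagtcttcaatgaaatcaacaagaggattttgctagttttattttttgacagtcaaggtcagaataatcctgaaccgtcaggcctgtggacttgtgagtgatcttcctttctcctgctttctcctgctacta
Copz2: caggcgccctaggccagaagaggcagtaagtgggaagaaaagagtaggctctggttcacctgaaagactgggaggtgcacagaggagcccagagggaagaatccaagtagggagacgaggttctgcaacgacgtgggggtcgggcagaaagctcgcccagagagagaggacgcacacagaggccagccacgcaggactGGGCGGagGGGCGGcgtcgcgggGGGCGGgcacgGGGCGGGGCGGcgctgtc
The Copz2 window holds 5 GC boxes and the Ppp1r21 window 3, with a G and C content of 66% and 68.4%. The Nme7 window holds 1 GC box and 2 CCAAT boxes at a content of 54.8%, and the Fancl window holds none of the 3 motifs at 44.4%. Of the 32851 mouse promoters in the same table, 32.7% hold a GC box, 33.8% a CCAAT box and 12.4% a TATAAA match in such a window. These matches are descriptions of the reference sequence only.

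Nme7, a nucleoside diphosphate kinase family protein of the centrosome and of motile cilia, had signals of 280.7, 314.2 and 317.9 in the OuJ air mice and 978.6, 1049.3 and 1442.2 in the HeJ air mice. The lowest HeJ array was far above the highest OuJ array, and the difference was -1.85 ± 0.15 (limma, adjusted p = 5.99e-08). Over the 12 arrays of each strain Nme7 stayed between 227.6 and 326.4 in OuJ and between 823.7 and 1442.2 in HeJ. Cystm1, a small cysteine-rich membrane protein gene on chromosome 18, read 1562.4, 1397.1 and 1419.4 in OuJ and 5169, 4353.6 and 4783.8 in HeJ, a difference of -1.70 ± 0.14 (adjusted p = 5.99e-08). Over the 12 arrays of each strain its lowest HeJ value was 4263.1 and its highest OuJ value 1862.2.

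Ppp1r21, a regulatory subunit of protein phosphatase 1 found on early endosomes, read 998.5, 987.7 and 954.7 in OuJ and 2773.5, 2872.3 and 2303.8 in HeJ. The OuJ mice were close to one another and all lay below the HeJ mice, a difference of -1.41 ± 0.14 (adjusted p = 6.84e-07). Fancl, the ubiquitin ligase of the Fanconi anaemia pathway of DNA crosslink repair, was the reverse, with 951.7, 952.6 and 854.8 in OuJ against 376.3, 352.7 and 386.5 in HeJ. That is a difference of 1.27 ± 0.11 (adjusted p = 7.48e-08). Copz2, a zeta subunit of the COPI coat that shapes Golgi vesicles, read 638.8, 710.7 and 748.6 in OuJ and 273.6, 265.3 and 203.2 in HeJ, 1.45 ± 0.15 (adjusted p = 2.04e-06). Fancl and Copz2 are both on chromosome 11, and each of the 5 genes has 1 named probe set on this array that passed the filter.

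Hbegf, the heparin-binding ligand of the EGF receptor that epithelium and macrophages release during repair, was the next by p. Its signals were 1111.8, 1143.7 and 1270.1 in OuJ and 2589.1, 2350.3 and 3393.4 in HeJ, so that the lowest HeJ mouse was above the highest OuJ mouse. The difference was -1.21 ± 0.17 (limma, adjusted p = 0.000465), and its other probe set gave -1.08. Hbegf and Cystm1 are near neighbours on chromosome 18, with 1 protein-coding gene, Pfdn1, between them. Pfdn1, a subunit of the prefoldin chaperone, differed by 0.06 (adjusted p = 0.914), and the adjoining Pura (0.21, adjusted p = 0.609) and Ankhd1 (-0.25, adjusted p = 0.676) did not pass either. Over the whole genome the genes that passed lay on many autosomes. They were 9 of 635 tested on chromosome 2 (1.42%), 7 of 441 on chromosome 1 (1.59%) and 3 of 203 on chromosome 18 (1.48%). None passed of 517 tested on chromosome 5, 271 on chromosome 13 and 299 on chromosome 19. The share over all autosomal genes was 0.734%, so few would be looked for on any of these chromosomes.

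**Figure D2:**
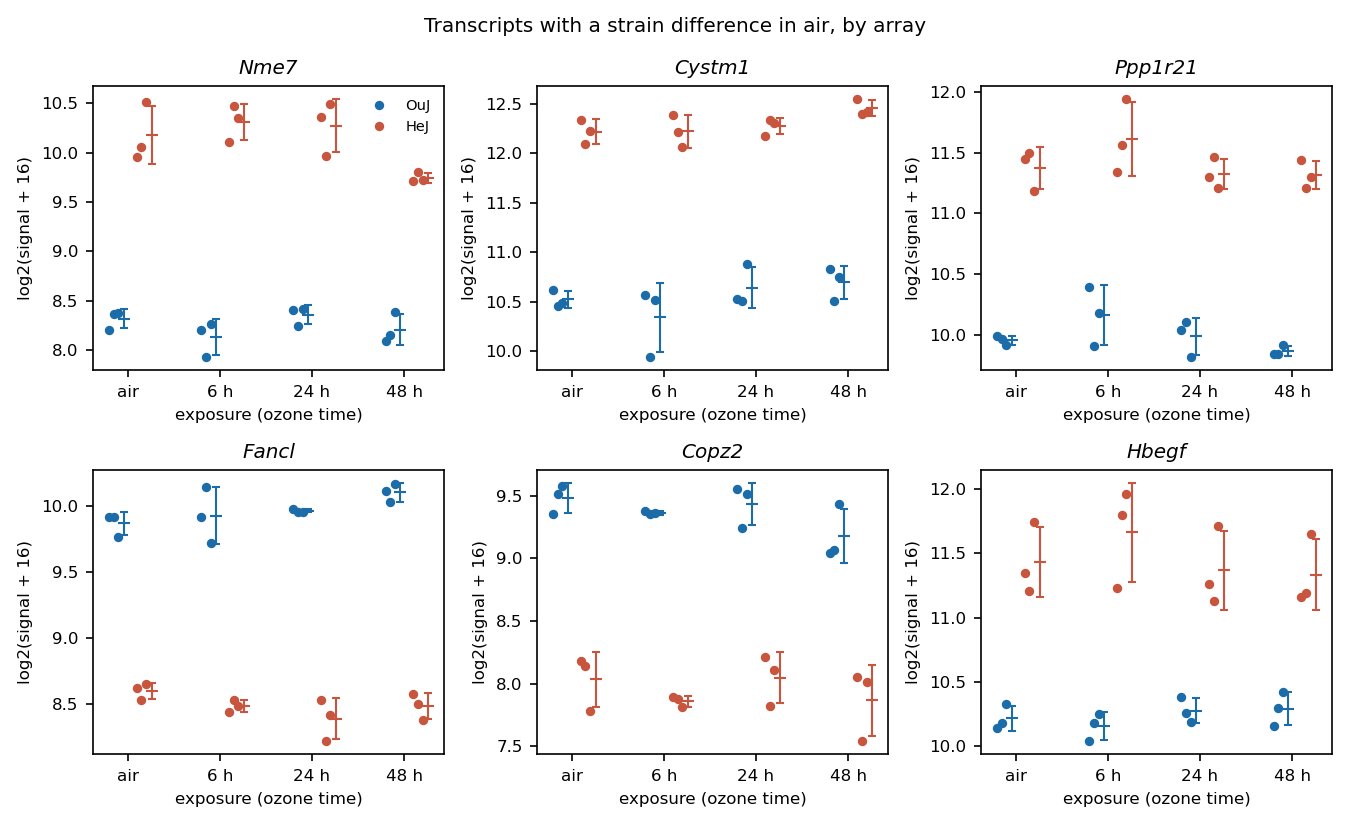
Log2(signal + 16) on each of the 24 arrays for 6 transcripts with a strain difference in air, by exposure; each point is 1 mouse, and OuJ and HeJ are coloured apart. Nme7, Cystm1, Ppp1r21 and Hbegf lie higher in HeJ and Fancl and Copz2 higher in OuJ in air and at all 3 ozone times, with no overlap between strains.

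Tlr4 itself and its signalling partners did not pass. Tlr4 read 207.8, 254 and 199.9 in OuJ and 244.4, 213.2 and 227.8 in HeJ, with the strains overlapping, a difference of -0.05 ± 0.17 (limma, adjusted p = 0.929). Because the HeJ allele is not a deletion, this level does not check the strain labels. Cd14, the co-receptor that hands lipopolysaccharide to the complex, differed by -0.10 ± 0.14 (adjusted p = 0.806), and the adaptor Myd88 by 0.00 in size (adjusted p = 0.997). Ly86, which pairs with the related receptor Cd180, had the smallest p of the list at -0.42 (adjusted p = 0.230). Of the 13 members tested of the Tlr4 receptor and adaptor list none passed, 1 was under an unadjusted p of 0.05, and the median was -0.05 against -0.03 over all autosomal genes. Of 10 NF-kB subunits and feedback inhibitors none passed and 1 was under an unadjusted p of 0.05, with a median of -0.18; the largest was the NF-kB cofactor Bcl3 at -0.66 (adjusted p = 0.321). The 10 tested genes that flank Tlr4 on chromosome 4 did not pass. With 3 arrays per strain, these p-values do not show that the levels are equal. In simulated data with these group sizes 30.3% of differences of 0.5, 91% of differences of 1 and 98.5% of differences of 2 were recovered. The simulated noise was independent for each gene and array. It held no effect shared by an array and no 5' to 3' ratio that moved with strain, unlike the real arrays.

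In the macrophage list 1 gene, Marco, passed, and it was higher in HeJ. Marco, the scavenger receptor by which alveolar macrophages bind unopsonized particles and bacteria, read 26.4, 62.7 and 21.8 in OuJ and 193.1, 234.5 and 124 in HeJ. All 3 OuJ mice were close to the floor of the array, and the difference was -1.95 ± 0.42 (limma, adjusted p = 0.0269). Marco was kept only through its HeJ signals, and with a pseudocount of 64 in place of 16 it was -1.29 and no longer passed (adjusted p = 0.0554). No other member of the 15 tested of the macrophage list passed. Of the 15, 6 were under an unadjusted p of 0.05, against 14.2% of all autosomal genes, and the list median was -0.16. The members did not share a direction. By point estimate 5 of the 15 were higher in OuJ, up to 0.68, against 44.6% of all autosomal genes. The air arrays of the strains did not overlap for 3 members higher in OuJ and 4 higher in HeJ, as for 21.2% of all autosomal genes in either direction. The mean log2 level of that list ran from 10.25 to 10.35 in the OuJ air mice and from 10.35 to 10.51 in the HeJ air mice. Marco is itself part of this mean, so the mean is not a separate measure of macrophage number. The part of macrophage number in the Marco difference was not tested. In these bulk samples fewer cells of a type and less RNA per cell cannot be told apart.

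Ighm, the heavy chain of IgM made by B cells, read 1391.2, 1480 and 895 in OuJ and 8127.9, 3909.2 and 5848.9 in HeJ, a difference of -2.20 ± 0.50 (adjusted p = 0.0328). Its probe sets disagree. The 4 that passed the filter gave -2.20, -0.997, 0.05 and 0.62, so the value holds for the brightest probe set, and their mean was -0.63 (adjusted p = 0.224). The other 11 tested members of the B cell list did not pass, and the list median was -0.17. The mean log2 level of the list, with Ighm itself included, ran from 8.87 to 9.18 in OuJ and from 9.16 to 9.46 in HeJ. Of the T and NK cell list and the neutrophil list none of 11 and none of 7 members passed, with 2 and 1 under an unadjusted p of 0.05; Thy1, a T cell surface protein, was -0.41 (adjusted p = 0.107) and S100a8, a neutrophil calcium-binding protein, 0.52. Laptm5, a lysosomal membrane protein of blood cells, was higher in HeJ at -0.71 ± 0.14 (adjusted p = 0.0164), though its 3 probe sets differ in sign.

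In the acute phase list 2 genes passed, both higher in HeJ. Hp, haptoglobin, which binds free haemoglobin and is made in club cells as well as in liver, read 9485.1, 8511.9 and 9489.2 in OuJ and 12063.4, 12979.1 and 13713 in HeJ. The difference of -0.49 ± 0.08 was small but even (adjusted p = 0.0027). Cp, the copper-carrying ferroxidase ceruloplasmin, was higher in HeJ by a similar size (-0.49 ± 0.12, adjusted p = 0.0477), although its 7 probe sets were not all of the same sign and their mean was -0.15 (adjusted p = 0.597). They were 2 of 9 tested members, with a median of -0.37. Hp is also in the club cell list, where it was the only one of 13 to pass. Of that list 7 were under an unadjusted p of 0.05, against 14.2% of all autosomal genes, and the median was -0.22. Its mean log2 level, with Hp itself included, ran from 12.27 to 12.43 in OuJ and from 12.64 to 12.79 in HeJ. These ranges did not overlap, but neither did those of some other lists. Among them were NF-kB (9.23 to 9.45 in OuJ, 9.51 to 9.6 in HeJ) and adipose tissue (9.47 to 9.54 in OuJ, 9.71 to 9.73 in HeJ). The largest value of the club cell list, named after it was seen, was that of Retnla at -1.47 ± 0.36 (adjusted p = 0.0569). The part of club cell number in the Hp difference was not tested. Hc, complement C5, read 3514, 2991.8 and 3249 in OuJ and 4238.9, 4812.1 and 4545.3 in HeJ, a difference of -0.48 ± 0.10 (adjusted p = 0.0276), and was the only gene of 13 complement members to pass. None of 5 mucous cell genes passed. All 5 had point estimates below 0, while 44.6% of all autosomal genes were above it, and 2 of the 5 were under an unadjusted p of 0.05 (14.2% of all). Of these Muc5b, the main airway gel-forming mucin of the resting mouse, was -0.83 (adjusted p = 0.165), and Pigr, the receptor that carries IgA and IgM into secretions, was -0.81 (adjusted p = 0.158).

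An interferon gene went the other way. Iigp1, an interferon-inducible GTPase that attacks the vacuoles of intracellular parasites, read 1343.9, 1694.2 and 1090.7 in OuJ and 887, 799.6 and 850.9 in HeJ, a difference of 0.67 ± 0.13 (adjusted p = 0.0126). It was 1 of 20 tested members of the interferon list to pass. By point estimate 14 of the 20 were higher in OuJ, against 44.6% of all autosomal genes. Under an unadjusted p of 0.05 were 8 of the 20, against 14.2% of all, and the median was 0.24, against -0.03. Cd302, a C-type lectin receptor of myeloid cells, was also higher in OuJ, by 0.69 ± 0.13 (adjusted p = 0.00969).

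The largest difference in favour of OuJ was that of Angpt1. Angpt1, the pericyte and mesenchymal ligand that steadies endothelium through the receptor Tie2, read 297.4, 263.1 and 174 in OuJ and 42.3, 10.6 and 48.5 in HeJ, with a difference of 2.46 ± 0.44 (limma, adjusted p = 0.009). It was 1.54 with the Gapdh ratio as a covariate (adjusted p = 0.545) and 1.15 with the actin ratio (adjusted p = 0.878). Over the 12 arrays of each strain the ranges met, since HeJ reached 249.9 and OuJ went down to 157.5. Nebl, an actin-binding protein of the nebulin family, read 229.9, 229 and 164.3 in OuJ and 58.8, 42.3 and 34.3 in HeJ, 1.88 ± 0.31 (adjusted p = 0.00346). It was kept only through its OuJ signals, and was 1.16 with the Gapdh ratio as a covariate (adjusted p = 0.502). Itga8, the integrin alpha chain of myofibroblasts and smooth muscle, read 1759.1, 1714.1 and 1586.1 in OuJ and 1028.3, 672.1 and 813.2 in HeJ. The difference of 1.02 ± 0.18 (adjusted p = 0.009) left every OuJ mouse above every HeJ mouse; with the Gapdh ratio as a covariate it was 0.34 (adjusted p = 0.648). Nt5e, the ectonucleotidase CD73 that makes adenosine, was higher in OuJ by 1.01 ± 0.24 (adjusted p = 0.0411).

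Nox4, the constitutively active NADPH oxidase of mesenchymal cells, was higher in OuJ by 0.87 ± 0.20 (limma, adjusted p = 0.0318), and Ednrb, the endothelin B receptor, by 0.80 ± 0.18 (adjusted p = 0.0336). Ednrb was the only one of 19 endothelial markers to pass, and the list median was -0.06. Of the 19, 7 were under an unadjusted p of 0.05, against 14.2% of all autosomal genes. They went in no single direction, as 8 of the 19 were higher in OuJ by point estimate, against 44.6% of all. The mean log2 level of the list, with Ednrb itself included, was 11.43 to 11.57 in OuJ and 11.46 to 11.60 in HeJ. The caveolar gene Cav1 was at -0.29 and did not pass. An integrin gene and a receptor gene were lower in OuJ: Itgav, the alpha V integrin chain that activates TGF-beta, at -0.62 ± 0.12 (adjusted p = 0.00969), and Notch1 at -0.50 ± 0.12 (adjusted p = 0.0482). Plvap, the endothelial protein of fenestral diaphragms, was lower in OuJ at -0.56 ± 0.13 (adjusted p = 0.0498). Igfbp6, which binds IGF2, read 2648.1, 2419.4 and 2413 in OuJ and 4120.8, 4226.8 and 4494.7 in HeJ, a difference of -0.78 ± 0.16 (adjusted p = 0.0169). Of 19 fibroblast and matrix genes none passed and 6 were under an unadjusted p of 0.05; of 8 smooth muscle genes none passed or was under it.

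Among detoxifying and metabolic genes, Gsta3, a glutathione S-transferase, was higher in OuJ by 0.80 ± 0.17 (limma, adjusted p = 0.0191) and was 1 of 27 tested members of the NRF2 and glutathione list, whose median was -0.03. Slc25a24, the mitochondrial carrier of ATP-Mg and phosphate, was higher by 1.13 ± 0.22 (adjusted p = 0.0126) and was kept only through its OuJ signals. Cycs, cytochrome c, was higher by 0.53 ± 0.13 (adjusted p = 0.0455) and was 1 of 30 respiratory chain genes. The metallothioneins did not pass: Mt1 was at -0.65 (adjusted p = 0.103) and Mt2 at -0.78 (adjusted p = 0.0800). Xpr1, the phosphate exporter and retrovirus receptor, was higher in HeJ (-0.90 ± 0.17, adjusted p = 0.00969).

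RNA and trafficking genes followed. Wdr4, a subunit of a tRNA methyltransferase, read 427.7, 288.4 and 262.6 in OuJ and 178.4, 34.5 and 154.9 in HeJ. HeJ replicate 2 was far below the other HeJ mice, and the difference was 1.50 ± 0.33 (limma, adjusted p = 0.0312). Without that mouse it was 0.88 (adjusted p = 0.127). The other kept probe set of Wdr4 gave 0.23 on all arrays. Xpo5, which exports precursor microRNAs from the nucleus, was higher in OuJ by 0.53 ± 0.12 (adjusted p = 0.0278) and was 1 of 12 microRNA processing genes to pass. Wfdc12, a whey acidic protein family protein, and Chn1, a Rac GTPase activating protein, were higher in OuJ at 0.86 and 0.85, and both were kept only through their OuJ signals. Cbarp, which regulates calcium channels, and Nbea, a scaffold of membrane traffic, were higher in HeJ at -0.89 and -0.69. The immediate early gene Ier2 was higher in HeJ at -0.57 ± 0.14 (adjusted p = 0.0477), 1 of 19 in its list. The uncharacterized transcript 6820431F20Rik was higher in OuJ at 0.81.

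Of the 57 genes 24 fall outside the rule by which genes were named, and these were named after their values were seen. They include Cd302, Itgav, Notch1 and Plvap, described above. Runx1, a transcription factor of blood formation (0.80), Fig4, a phosphoinositide phosphatase (0.70), Tubgcp4 of the gamma-tubulin complex (0.69), Lactb2 (0.68), Rnf149 (0.66), Rbm7 (0.61), Rabif (0.58), the Golgi GTPase Arl1 (0.57), the cap-binding protein Eif4e (0.47) and Pcyox1 (0.42) were higher in OuJ. Capn15 (-0.64), Snhg8 (-0.65), the calcium pump Atp2a3 (-0.63), D230025D16Rik (-0.59), the Polycomb protein Cbx6 (-0.58), Arf5 (-0.58), Sumo3 (-0.55), the epithelial protease St14 (-0.47), Acot7 (-0.47) and Limd1 (-0.40) were higher in HeJ. Of the 21 passing genes with several kept probe sets, all probe sets had the same sign in 14. In Atp2a3, Capn15, Cp, Ighm, Lactb2, Laptm5 and Tubgcp4 they did not. In the 14 the same sign did not mean the same size. The other kept probe sets gave 0.23 for Wdr4, 0.17 for Gsta3, 0.19 and 0.02 for Cycs and -0.11 for Notch1. They gave 0.007 for Eif4e, 0.05 for Runx1, -0.06 for Limd1 and -0.09 for D230025D16Rik. For Hbegf they gave -1.08, for Nox4 0.70, for Iigp1 0.54 and for Ednrb 0.38. Xpr1 had -0.80, -0.16 and -0.60, and Npr3 -0.52 and -0.18.

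**Figure D3:**
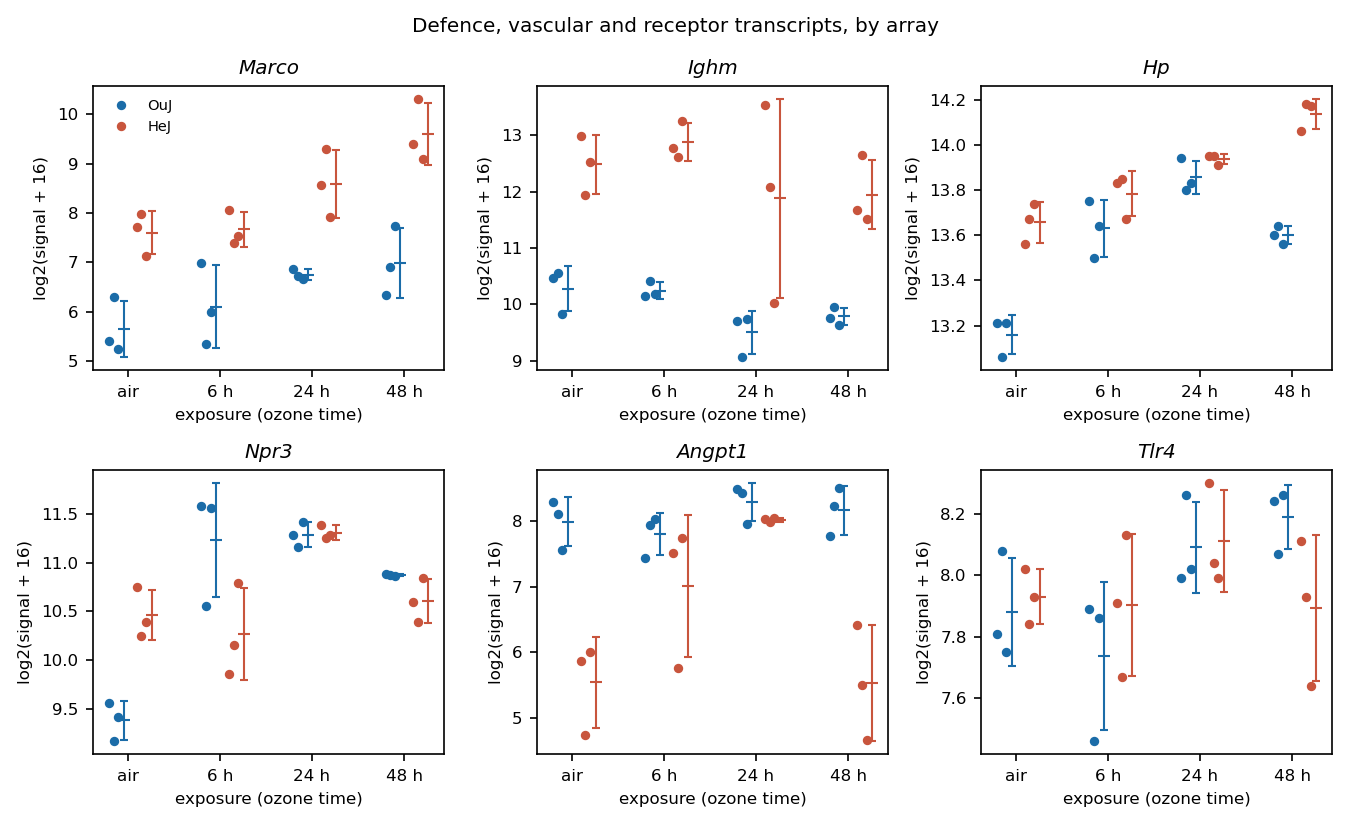
Log2(signal + 16) on each of the 24 arrays for Marco, Ighm, Hp, Npr3, Angpt1 and Tlr4, by exposure; each point is 1 mouse, and OuJ and HeJ are coloured apart. In air Marco, Ighm, Hp and Npr3 lie higher in HeJ and Angpt1 higher in OuJ, while the Tlr4 points of the strains overlap.

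Across 43 gene lists chosen for the tissue, 11 held a gene that passed and 32 held none. The lists held 11 distinct genes that passed among 536 distinct genes tested, beside 57 of all 7769 autosomal genes (0.734%). With so few genes passing, a short list will often hold none, so an empty list is not a result about its cell type or pathway. Lists without a passing gene included alveolar type 1 and type 2 cells, ciliated cells, smooth muscle, fibroblast and matrix, MHC class I and II, the clock, glucocorticoid-responsive genes, cholesterol synthesis, the unfolded protein response and heat shock proteins. Of 14 type 2 markers 5 were under an unadjusted p of 0.05 and the median was -0.11. Of 23 heat shock genes 2 were, with a median of 0.05. The Hsp70 genes Hspa1a (0.69 ± 0.63, adjusted p = 0.671) and Hspa1b (1.38 ± 0.62, adjusted p = 0.307) were high in OuJ replicate 3, which read 712.8 and 1820.7, while the other 5 air mice lay between 94.8 and 148.3 and between 130.5 and 276.5. In the skeletal muscle list, which marks tissue from outside the lung, none of 5 passed and 1 was under an unadjusted p of 0.05; Acta1 was at -1.24 (adjusted p = 0.389) and Ckm at -0.52. The mean log2 level of that list was 8.40 to 8.72 in OuJ and 8.84 to 9.35 in HeJ.

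**Figure D4:**
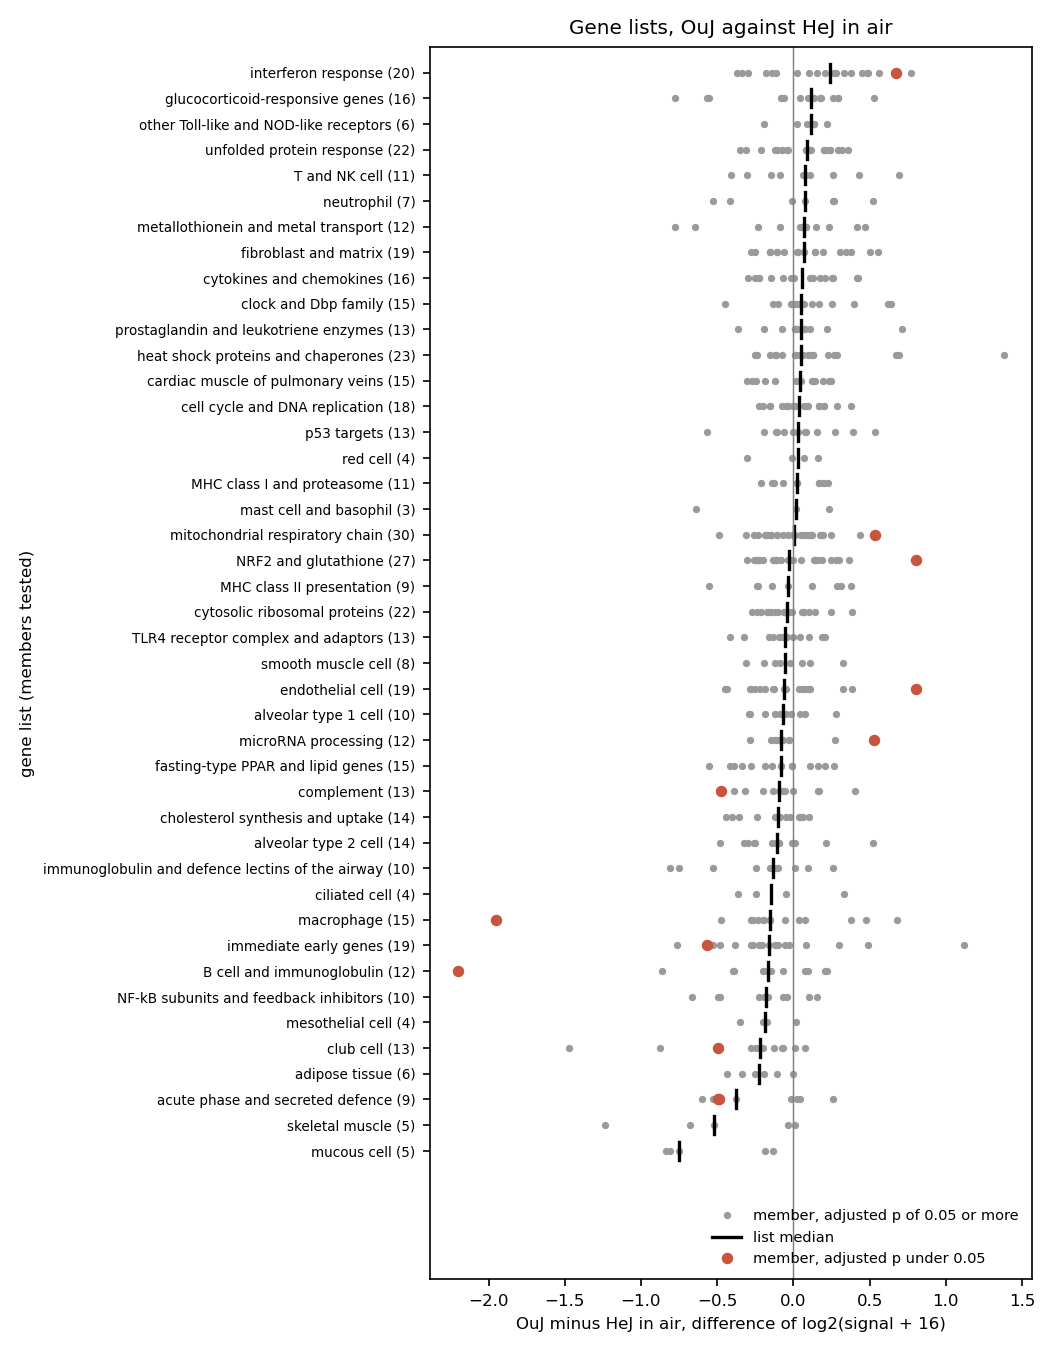
Difference between OuJ and HeJ in air for every tested member of each of the 43 gene lists; grey points are members that did not pass, coloured points members that did, and the black bar is the median of the list. Most medians lie close to 0, and the mucous cell list, at -0.75, lies farthest from it.

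The same strain comparison in ozone-exposed mice uses different arrays. The 5' to 3' ratio separated the strains there too: the Gapdh ratio was 0.841 to 0.931 in OuJ and 0.586 to 0.714 in HeJ at 6 h, and 0.824 to 1.03 against 0.497 to 0.670 at 48 h. The actin ratio did not overlap at these times either, while at 24 h the strains overlapped for both controls. Genes that recurred at 6 and 48 h therefore recurred in arrays in which strain and this ratio again moved together. At 6 h of ozone, 112 autosomal genes passed (1.44%), at 24 h 144 (1.85%) and at 48 h 610 (7.85%); over the mean of the 3 times 1187 did (15.3%), 494 higher in OuJ (6.36%) and 693 higher in HeJ (8.92%). With the Gapdh or the actin ratio as a covariate the count at 6 h was 12 with either, and over the ozone mean 150 and 35; fitted on the 6 h arrays alone, the count at 6 h was 15. The air and 6 h arrays share 1 series of sample codes, while at 24 and 48 h each strain has a code series of its own, so strain and code series cannot be told apart there. Of the 57 genes that passed in air, 54 had the same sign at 6 h, against 62.3% of all autosomal genes, and 54 over the ozone mean, against 68.1%. At 6 h 17 of the 57 passed again with the same sign, which is 29.8% of those and 15.2% of the genes that passed at 6 h. At 24 h 17 did (29.8% of the 57 and 11.8% of the genes that passed then). At 48 h 35 did (61.4% of the 57 and 5.74% of the genes that passed then). Over the ozone mean 47 did, which is 82.5% of the 57 and 3.96% of the 1187. These shares are of calls made without the ratio as a covariate. The median size of the 57 fell from 0.69 in air to 0.39 over ozone; the genes were chosen by their air values.

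All 57 genes were already apart on the 6 air arrays by which they were chosen, as were 21.2% of all autosomal genes. A separation over all 24 arrays was therefore favoured in the 57. In 14 of the 57 genes all 12 OuJ arrays lay on 1 side of all 12 HeJ arrays, while 21 of all autosomal genes did so (0.27%). They were Nme7, Cystm1, Ppp1r21, Hbegf, Xpr1 and Sumo3, higher in HeJ, and Fancl, Copz2, Itga8, Cd302, Pcyox1, Fig4, Wfdc12 and Chn1, higher in OuJ; Wfdc12 and Chn1 were kept only through OuJ. Marco also kept its direction, with -1.56 at 6 h, -1.84 at 24 h and -2.61 at 48 h (-2.005 ± 0.24 over the ozone mean, limma, adjusted p = 9.55e-06), and Ighm with -2.64, -2.38 and -2.16.

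For other genes the test of air against ozone did not pass, and their values at 6, 24 and 48 h are given as a description. Angpt1 was 0.80, 0.27 and 2.65 (adjusted p of air against ozone = 0.780). Wdr4 was -0.25, -0.19 and -0.39, and Xpo5 was 0.06, -0.42 and 0.12 (adjusted p = 0.175 for both). Npr3, the clearance receptor of natriuretic peptides, changed sign. In air it read 740.1, 561.8 and 667.9 in OuJ and 1704.8, 1203.4 and 1327.3 in HeJ, a difference of -1.08 ± 0.22 (limma, adjusted p = 0.0169), or -0.59 as the mean of its probe sets (adjusted p = 0.101). At 6 h of ozone it read 3045.9, 1495 and 3013.4 in OuJ and 914.8, 1125.9 and 1750.9 in HeJ, a difference of 0.97, and that comparison passed in the opposite direction. At 24 and 48 h the difference was -0.02 and 0.26. Npr3 was the only autosomal gene whose strain difference in air differed from that over ozone after adjustment (1 of 7769, 0.0129%), while 481 genes (6.19%) were under an unadjusted p of 0.05. No gene passed this comparison with a pseudocount of 64, with no filter, with the mean of a gene's probe sets, with no intensity trend, with either ratio as a covariate or without the arrays whose codes carry a suffix. Npr3 passed it in 4 of 24 fits with 1 array left out and was lost in 20.

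The 5' to 3' signal ratio was then entered as a covariate. With the Gapdh ratio 6 of the 57 genes still passed, and with the actin ratio, a choice made after the data were seen, 5 did. The 5 that passed in both were Nme7, Cystm1, Fancl, Ppp1r21 and Copz2; Ighm was the sixth with the Gapdh ratio (-3.37, adjusted p = 0.0231). All 57 kept their direction in both fits. The median size went from 0.692 to 0.594 and 0.572 and the median SE from 0.141 to 0.196 and 0.224 (no covariate, Gapdh, actin), a smaller difference and a wider error. The size was smaller by over 1.5 times in 9 of the 57 with the Gapdh ratio and in 18 with the actin ratio. Nt5e went to 0.44 and Ednrb to 0.45 with Gapdh. Nox4 went to 0.43, Iigp1 to 0.33, Gsta3 to 0.40 and Marco to -1.07 with actin. Hbegf changed little in size, at -0.998 with the Gapdh ratio (adjusted p = 0.250) and -1.24 with the actin ratio (adjusted p = 0.276). Because the ratio and strain moved together in air, their parts cannot be told apart in any of the 57 differences. That includes the genes that still passed with a covariate.

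**Figure D5:**
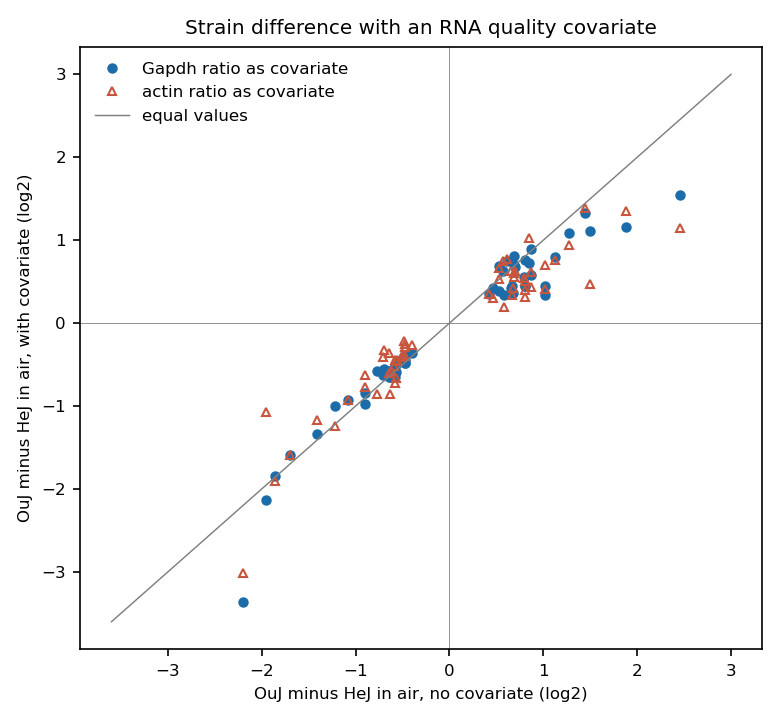
Strain difference in air (OuJ minus HeJ, log2) of the genes that passed, without a covariate on the x axis and with the Gapdh or actin 5' to 3' ratio as covariate on the y axis; the grey line marks equal values. All 57 points keep their side of 0, and most lie nearer to 0 than the line.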

How the data were processed

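Left lung lobes of 24 male mice were each hybridized to 1 Affymetrix array, 3 per strain and exposure. The deposited signal intensity values, made by the authors with GCOS 1.4 per the submitters' processing notes, are on a linear scale. They share a trimmed mean of 500.14 to 500.17 (2% trimmed). Algorithm settings are not stated.

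The unit analysed was log2(intensity + 16). Of 22690 probe sets, the 12895 that exceeded 218.3, the median over the whole table, on 3 or more of 24 arrays were kept. Of these 11843 had 1 gene symbol, and each gene is represented by its brightest probe set on average, leaving 8008 genes, 7769 of them autosomal by RefSeq, which lacked 21 symbols. A model of 8 group means over 24 arrays was fitted with limma 3.58.1 in R 4.3.3, with an intensity trend, two-sided p-values and Benjamini-Hochberg adjustment over all 8008 genes. It was tested on simulated data of 8008 genes with independent noise for each gene and array, where 4 calls were false. The number of arrays limits the precision. Files were read with the R package data.table (version 1.17.8).

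The members and the 43 gene lists (536 distinct genes tested) were chosen with earlier results of these data known. The genes named are the 12 largest passing differences in each direction, Tlr4, Ly96 (not analysed here), Cd14, Myd88, Marco, Hspa1a and Hspa1b, up to 4 passing or 2 other members of each list, and up to 5 per direction in the comparison of air with ozone.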

Additional observations from a re-analysis of the deposited data

Results flagged for a closer look

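Npr3 drew attention because its strain difference depended on exposure. OuJ minus HeJ was -1.08 in air and 0.40 over the mean of 6, 24 and 48 h of ozone, and the air value minus the ozone value was -1.48 (limma, adjusted p = 0.0451). With 1 array left out this passed in 4 of 24 fits and was lost in 20. All 3 OuJ air mice were below all 3 HeJ air mice. The air and 6 h arrays share a series of sample codes, while at 24 and 48 h strain and code series cannot be told apart.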

How the results depend on the processing

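The count of 57 genes in air was within 1.5 times with quantile-normalized or median-centred arrays, another pseudocount (1 or 64), another filter (none, or by mean signal), no intensity trend and fits on the 6 air arrays or the 12 arrays of code series 3 alone. A similar count did not mean the same genes, as only 25 of the 57 passed in the fit on the 6 air arrays. The count was 92 with the mean of a gene's probe sets (56 higher in OuJ, 36 in HeJ, 40 shared), 190 with array weights, 6 with the Gapdh and 5 with the actin ratio as a covariate, and 30 without the arrays whose codes carry a suffix. Leaving out 1 array in turn gave 18 to 75. The count at 6 h (112) was 70 with no filter, 15 on the groups compared, 47 on code series 3, 288 with array weights, 12 with either ratio, 44 without suffixed arrays and 38 to 161 with 1 array left out. Over the ozone mean (1187) it was 150 with Gapdh, 35 with actin, 777 without suffixed arrays and 958 to 1201 with 1 array left out; median centring moved its split from 494 higher in OuJ and 693 in HeJ to 374 and 853. The count for air against ozone (1) was 0 with a pseudocount of 64, no filter, the mean of probe sets, no trend, either ratio and without suffixed arrays, and 0 to 1 with 1 array left out; Npr3 was the gene in 4 of those 24 fits, and in 1, without HeJ air replicate 3, it was another gene.

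In air, mice with the same replicate number in the strains did not deviate together (r = 0.04, 0.00 in size and 0.07). This was computed for the air groups only, so it does not settle whether the numbers pair mice. With the replicate number as a block the air count was 89, all 57 among them.

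Of the 57 genes 56 kept their direction in every run that tested them, 39 or, for Angpt1, Chn1, Nebl and Slc25a24, 38. Values that reversed were Atp2a3, 0.0175 with the mean of probe sets, and Myd88, 0.2542 with Gapdh, 0.0544 with actin and 0.007 without suffixed arrays. With 1 array left out, Tlr4 ran from -0.1514 to 0.0099, Myd88 from -0.0499 to 0.0384 and Hspa1a from -0.18 to 1.15. Apart from the smaller samples, the cause was not tested. A fit limited to the groups compared gives no value for air against ozone, and code series 3 none for the ozone mean. Signals near the pseudocount limit Marco and Angpt1.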
